A study of Mus musculus with 14 samples.

Results

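The comparison described here is that of FLAG ChIP-seq peaks on chromosomes 1 to 19 between cells with a tagged H3.3 K27M histone and cells with the tagged wild-type histone. It uses 6 of the 12 peak lists of the series, namely all those of the FLAG antibody, with each list as 1 replicate. These lists hold 350680 FLAG peaks, of which 347289 lie on the 19 autosomes and are described below. The cells were neural stem cells of the mouse hindbrain, taken at stage e15.5 and kept as neurospheres. All carried Nestin-cre, which is active in neural progenitors, and 1 tagged allele of H3f3a that stays silent until Cre removes a stop cassette. In the 3 K27M-Tag cultures (Nestin-cre; H3f3aLSL-K27M-Tag/+) this allele encodes the K27M substitution, and in the 3 WT-Tag cultures (Nestin-cre; H3f3aLSL-WT-Tag/+) it encodes the unchanged histone. The other H3f3a allele was not altered in either group. By the labels WT-Tag replicate 3 was male and the other 5 cultures were female. Each replicate has a culture name of its own, and the labels do not say that the cultures came from separate embryos, so the spread between replicates may be partly technical. A FLAG list of cells without the tag was not analysed here. The labelled cell type was not checked against marker genes, because no gene table of the build of the lists, mm9, was used.

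Histone H3.3 is a variant of histone H3 that is placed into chromatin outside DNA replication. It is found at active promoters, enhancers and gene bodies, and also at telomeres and repeats. The K27M substitution replaces a lysine that can be methylated or acetylated and is the defining mutation of diffuse midline gliomas, childhood tumours of the brainstem and other midline structures. In such cells the repressive mark H3K27me3 is lost from much of the genome. An antibody against the FLAG tag shows where the tagged histone sits, and H3K4me3, measured in the same cultures, marks active and poised promoters.

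Each list is the authors' own set of intervals in which FLAG signal exceeded background. Autosomal FLAG peaks numbered 77229, 57061 and 87258 in K27M-Tag replicates 1 to 3, as against 32466, 46880 and 46395 for WT-Tag. The lists give no read totals, so depth was recovered from the fold and the p of each peak, as a background coverage of 3.16, 3.34 and 3.60 fragments per base in K27M-Tag against 3.09, 3.45 and 3.33 in WT-Tag. The ranges of coverage overlapped, and WT-Tag replicate 1 was both the shortest list and the one with the lowest coverage. Divided by the shortest width of each list, taken as the fragment length, coverage was 14.98, 15.53 and 18.0 fragments per kb in K27M-Tag. For WT-Tag it was 17.56, 17.51 and 17.25, so these ranges also overlapped. On this scale WT-Tag replicate 1 lay above K27M-Tag replicates 1 and 2, so its short list did not go with the lowest depth. The local background under a peak differed. It was more than 1.5 times the coverage of the list at 9.51%, 5.67% and 6.99% of K27M-Tag peaks and at 16.0%, 12.8% and 20.1% of WT-Tag peaks.

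Peaks of tagged H3.3 K27M were denser on every autosome. Over 19 autosomes, K27M-Tag lists had 32.0, 23.7 and 36.2 peaks per Mb, and WT-Tag lists 13.5, 19.5 and 19.2. The means were 30.6 ± 6.38 and 17.4 ± 3.40 (SD, n = 3 each), a ratio of 1.76. The lowest K27M-Tag list lay above the highest WT-Tag list. Without the peaks on a raised local background the difference of means was 13.8 peaks per Mb, compared with 13.25 for all peaks. In a two-sided exact permutation test this gave p = 0.1, the smallest value that 3 lists against 3 allow, and p = 0.1 after Benjamini-Hochberg adjustment over the 6 comparisons of this kind. None of these 6 comparisons can therefore pass 0.05, and each is described by its values. Taken one by one, all 19 autosomes (100%) had every K27M-Tag list above every WT-Tag list.

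The gain was uneven between chromosomes. It was highest on chromosome 13, with 25.5, 19.2 and 30.5 peaks per Mb in K27M-Tag against 8.43, 13.5 and 13.3 in WT-Tag, a ratio of the means of 2.13. Chromosome 13 had the lowest density of all autosomes in each WT-Tag list and was in 17th place of 19 in the K27M-Tag mean. Chromosome 3 followed at a ratio of 2.06, from 26.2, 19.8 and 30.6 peaks per Mb against 8.97, 14.5 and 13.8. On chromosome 18 the K27M-Tag lists had 29.1, 21.7 and 33.3 peaks per Mb, and the WT-Tag lists 10.7, 16.1 and 16.5, a ratio of 1.95. These 3 chromosomes share a WT-Tag density below that of the whole autosomal set.

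Chromosome 11 was the densest autosome in all 6 lists and had the lowest ratio, 1.56. It held 56.1, 41.6 and 60.8 peaks per Mb in K27M-Tag against 27.04, 37.9 and 36.5 in WT-Tag. Chromosome 17 also had a ratio of 1.56, with 35.0, 25.9 and 39.6 peaks per Mb against 16.9, 23.9 and 23.4. On chromosome 15 the ratio was 1.63, from 35.7, 25.7 and 39.4 against 16.3, 23.3 and 22.4. The narrowest gap between the genotypes was on chromosome 17, where K27M-Tag replicate 2 exceeded WT-Tag replicate 2 by 1.94 peaks per Mb.

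**Figure D1:**
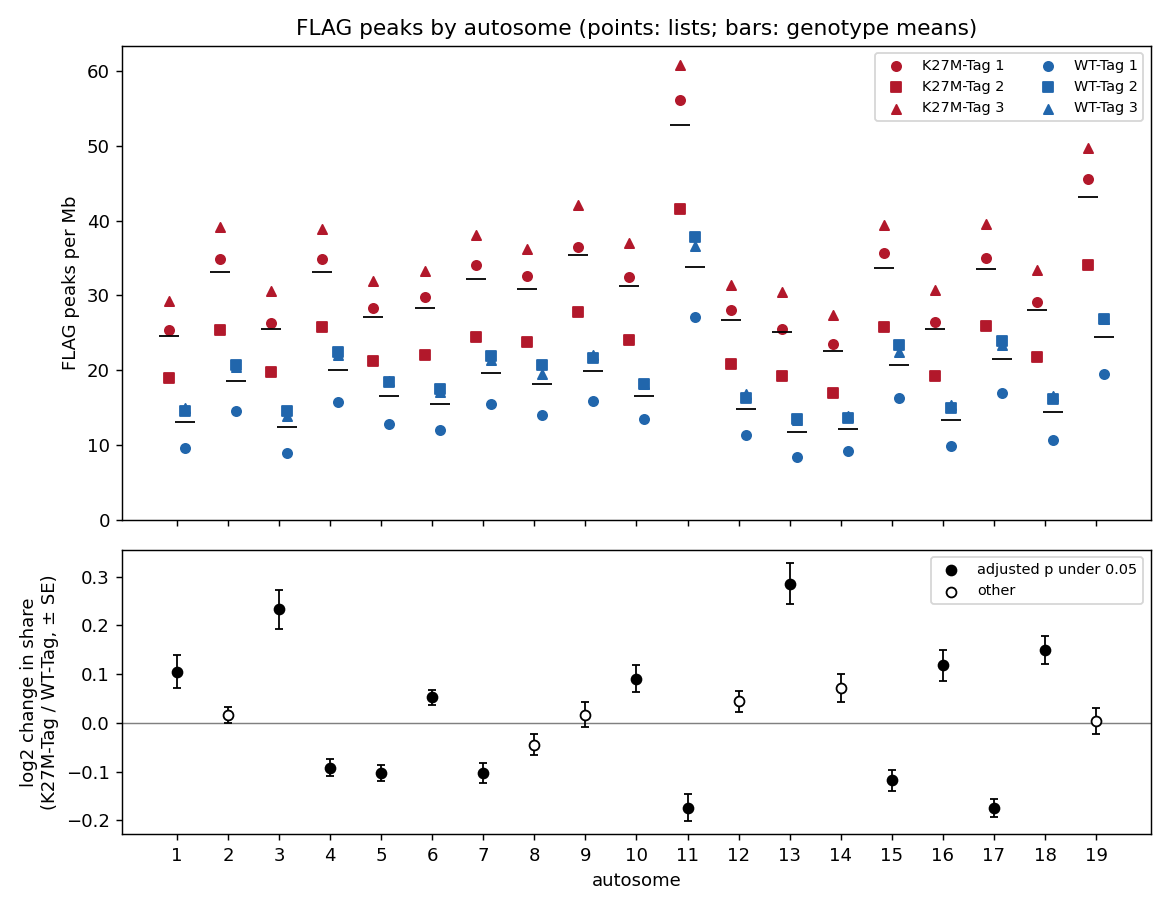
Upper panel: FLAG peaks per Mb on each autosome in each list, with short bars at the genotype means. Lower panel: log2 change in a chromosome's share of the autosomal peaks, K27M-Tag over WT-Tag, with its standard error. All 3 K27M-Tag points lie above all 3 WT-Tag points on each autosome, and the share rises most on chromosome 13 and falls most on chromosomes 11 and 17.

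Since the K27M-Tag lists are longer, each chromosome was also expressed as a share of the autosomal peaks of its list. By limma at an adjusted p under 0.05, 7 of 19 autosomes (36.8%) took a higher share in K27M-Tag and 6 (31.6%) a lower share. The higher ones were chromosomes 1, 3, 6, 10, 13, 16 and 18, and the lower ones 4, 5, 7, 11, 15 and 17. Chromosome 13 held 3.97% ± 0.111 of K27M-Tag peaks and 3.26% ± 0.186 of WT-Tag peaks (SD, n = 3), 0.29 higher on the log2 scale (SE 0.04, limma adjusted p = 0.0017). Chromosome 11 held 8.52% ± 0.216 and 9.61% ± 0.269 (SD, n = 3), a change of -0.17 on the log2 scale (SE 0.03, limma adjusted p = 0.0017). The calls of chromosomes 1, 4, 6, 10, 16 and 18 were lost under at least 1 of the alternatives, and those of the other 7 under none that was run.

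Densities differed less between chromosomes in K27M-Tag than in WT-Tag. The densest autosome had 2.40, 2.45 and 2.22 times the density of the sparsest in the K27M-Tag lists, and 3.21, 2.80 and 2.75 times in the WT-Tag lists. The coefficient of variation over the 19 autosomes was 23.2% ± 1.36 in K27M-Tag against 30.1% ± 2.288 in WT-Tag (SD, n = 3), without overlap. Chromosomes with more H3K4me3 peaks per Mb had more FLAG peaks per Mb in both genotypes (Pearson r = 0.97 in K27M-Tag against 0.96 in WT-Tag) and a smaller ratio between genotypes (r = -0.63, Spearman rho = -0.71). These correlations are over 19 chromosomes that share the same 12 lists and describe them only. The share of the H3K4me3 lists themselves was called higher in K27M-Tag on 3 autosomes (15.8%), 1, 3 and 18, and lower on 3 (15.8%), 7, 11 and 17 (limma, adjusted p under 0.05). All 6 of these were called in the same direction by their share of FLAG peaks. H3K4me3 density was 1.10 to 1.199 times as high in K27M-Tag on each chromosome. Chromosome 13, with the highest FLAG ratio, was not among those whose H3K4me3 share was called (log2 change -0.01, limma adjusted p = 0.42).

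Each autosome was then divided into bins of 1 Mb, and each peak was counted in the bin of its summit. Of 2330 bins with a peak in any of the 12 lists, 2203 held a FLAG peak and 1795 had one in all 6 FLAG lists. K27M-Tag lists left 209, 246 and 160 of the 2330 bins empty, and WT-Tag lists 484, 322 and 308. A further contrast was in crowded bins, with at least 100 peaks, of which there were 143, 68 and 174 in K27M-Tag against 21, 62 and 54 in WT-Tag. K27M-Tag lists thus had fewer empty bins and more crowded ones. Of the 2330 bins, 42 had a peak in all 3 K27M-Tag lists and in no WT-Tag list, and the reverse held in 1 bin. Counts of empty, crowded and exclusive bins move with the length of a list and are given for the full lists only. The bin counts of lists correlated at r = 0.98 to 0.99 within K27M-Tag, 0.97 to 0.98 within WT-Tag and 0.92 to 0.95 between genotypes, over the same 2330 bins.

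Among 1703 bins with a mean of at least 5 peaks over the 6 lists, 1679 had a higher mean in K27M-Tag and 22 a lower one. The median log2 change was 0.98, on the scale of log2(peaks + 1), which understates the change of sparse bins. By limma at an adjusted p under 0.05, 1166 bins (68.5%) were higher in K27M-Tag and 1 (0.0587%) was lower. At an unadjusted p under 0.05 the numbers were 1231 and 1. All bins of a list move with its length, and the fit treats them as separate. The p-values as counted, here and below, can therefore understate the spread between lists. For the total number of peaks, 3 lists against 3 gave p = 0.1 by exact permutation. The lists did not overlap, with K27M-Tag above WT-Tag, in 1174 bins (68.9%), and 0 bins (0%) had every WT-Tag list above every K27M-Tag list. With lists cut to their 32466 top-scoring peaks, the length of the shortest list, 306 bins were higher and 198 lower, so the calls were then far less one-sided.

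As a share of its list, a bin could rise or fall. By limma on log2(peaks per 10000 autosomal peaks + 1), 461 bins (27.1%) took a higher share in K27M-Tag and 230 (13.5%) a lower share, with a median log2 change of 0.17 over the 1703 bins. All 461 of the first kind were also higher as counted, and so were 4 of the second kind. Bins with a higher share had a median of 8 peaks in WT-Tag and 27.7 in K27M-Tag, and bins with a lower share 55.8 and 69.7, against 15 and 32.3 over all tested bins. These numbers enter the change itself, and a bin with few WT-Tag peaks passed the minimum mean of 5 only through K27M-Tag. Their median number of H3K4me3 peaks was 13.2 and 30.9, on either side of the median over all tested bins. The log2 change in share correlated with log2(H3K4me3 peaks + 1) at r = -0.41 over the 1703 bins, as a description. A raised local background was present at a median of 5.36% of K27M-Tag and 9.20% of WT-Tag peaks in bins with a higher share, and at 8.60% and 18.7% in bins with a lower share. Without such peaks, 489 of the 691 bins were still called in the same direction and none in the other.

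**Figure D2:**
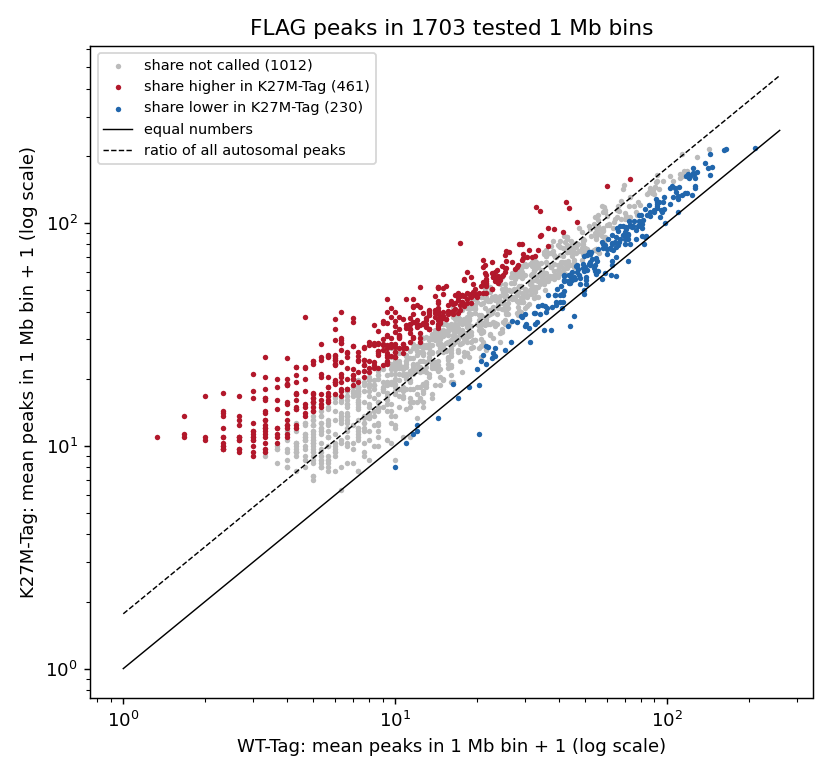
Mean FLAG peaks per 1 Mb bin in WT-Tag (x) and K27M-Tag (y), each plus 1, on log axes, for the 1703 tested bins. Nearly all points lie above the solid line of equal numbers, and the 461 bins called for a higher share (red) lie above the dashed line of the overall ratio and the 230 called for a lower share (blue) below it.

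The bin that gained most peaks was chr10:84000001-85000000, with 205, 173 and 230 peaks in K27M-Tag against 141, 108 and 89 in WT-Tag. The difference of means was 90 peaks, or 0.86 on the log2 scale (SE 0.22, limma adjusted p = 0.000511). Its share of the list did not pass the test (log2 change 0.04, limma adjusted p = 0.876), and the call as counted was lost at equal list size and with peaks joined across gaps of 1000 bp. By contrast chr6:91000001-92000000, second in gain, went from 47, 64 and 66 peaks in WT-Tag to 152, 125 and 159 in K27M-Tag and also rose in share (log2 change 0.47, limma adjusted p = 0.00209). That rise in share was lost with peaks joined, at a log2 change of -0.13.

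The bin next in gain was chr13:23000001-24000000, with 119, 101 and 132 peaks in K27M-Tag against 24, 36 and 36 in WT-Tag. No WT-Tag list reached a share as large as the K27M-Tag lists, and the ratio of means was 3.67 (share log2 change 0.99, limma adjusted p = 2.84e-05). The call by share was lost with peaks joined, and the call as counted was not. Of its peaks, a mean of 87 for K27M-Tag and 26 for WT-Tag overlapped an H3K4me3 peak of the same culture, so peaks on H3K4me3 outnumbered the others in both genotypes. The remaining bins among the 10 largest gains were chr4:97000001-98000000, chr6:53000001-54000000, chr6:54000001-55000000, chr7:56000001-57000000, chr19:55000001-56000000, chr7:119000001-120000000 and chr11:88000001-89000000. They gained 72.0 to 84.0 peaks, with ratios of 1.79 to 3.39. On chromosome 6 the bins from 53000001 and 54000001 are neighbours and went from 23, 51 and 51 to 139, 94 and 137 peaks and from 24, 44 and 31 to 122, 92 and 122.

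The 10 bins with the largest rise in share are given by their values, since a bin chosen in this way must be low in WT-Tag. In chr7:77000001-78000000 there were 37, 24 and 50 peaks in K27M-Tag against 4, 3 and 4 in WT-Tag, a share higher by 1.63 on the log2 scale. This bin passed the minimum mean of 5 only through K27M-Tag, so no p-value is given for it. The bin chr3:148000001-149000000 had 42, 24 and 50 peaks against 2, 8 and 6. In chr5:84000001-85000000 each WT-Tag list had 1 peak, against 14, 11 and 22 in K27M-Tag. Over the 10 such bins the mean in K27M-Tag was 5.32 times that in WT-Tag for chr13:22000001-23000000, 4.92 times for chr13:21000001-22000000, and more for the other 8. The bin chr13:21000001-22000000 was the fullest of the 10, with 86, 66 and 89 peaks in K27M-Tag against 10, 24 and 15 in WT-Tag.

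Some called bins lay side by side, as some must where 27.1% of tested bins have a higher share and 13.5% a lower one. How many runs such shares give by placement alone was not worked out, so the counts are not read as a regional feature. The 461 bins with a higher share formed 336 runs of adjacent bins, of which 26 spanned at least 3 bins, and the 230 with a lower share formed 164 runs, of which 11 did. The longest run with a higher share covered 6 bins, chr2:48000001-54000000, with 142, 118 and 181 peaks in K27M-Tag against 24, 51 and 53 in WT-Tag, and a mean of 8.86 H3K4me3 peaks per bin. In the 5 bins of chr13:19000001-24000000 there were 296, 245 and 340 peaks against 43, 96 and 82, a ratio of 3.99. This stretch holds 3 of the bins named above and lies on the autosome with the highest ratio. Another 5 bins, chr10:41000001-46000000, had 214, 157 and 231 peaks against 56, 68 and 57. Of the runs with a lower share, the longest were chr4:133000001-139000000 and chr19:3000001-9000000, each of 6 bins. Their mean number of peaks was still 1.32 times as high in K27M-Tag, from 512, 397 and 590 against 309, 423 and 400 on chromosome 4 and 751, 558 and 774 against 428, 584 and 566 on chromosome 19. In both runs K27M-Tag replicate 2 lay within the WT-Tag range. No test of the runs themselves was made.

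A fall in number was rare. The single bin called lower as counted was chr17:3000001-4000000, with 12, 6 and 13 peaks in K27M-Tag against 13, 22 and 23 in WT-Tag. On the log2 scale this was -0.87 (SE 0.40, limma adjusted p = 0.0447), and K27M-Tag replicate 3 equalled WT-Tag replicate 1. That call was lost under several alternatives, among them leaving out K27M-Tag replicate 1 or 2 or WT-Tag replicate 2 or 3. Its fall in share was larger, with a log2 change of -1.23 (limma adjusted p = 0.000107). Among the other bins named for a lower share, the numbers overlapped between the genotypes in those given here. In chr1:40000001-41000000 peaks numbered 69, 38 and 64 in K27M-Tag against 52, 71 and 69 in WT-Tag, which overlap, and the share changed by -0.93 (limma adjusted p = 5.93e-05). The bin chr4:147000001-148000000 had 84, 67 and 88 peaks against 75, 83 and 86.

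The fullest bin was the same in both genotypes, chr6:114000001-115000000. It held 231, 171 and 244 peaks in K27M-Tag against 206, 222 and 204 in WT-Tag, so the ranges overlapped, while its share changed by -0.78 on the log2 scale (limma adjusted p = 0.000228). Next in K27M-Tag were chr10:80000001-81000000, with 244, 155 and 240 peaks against 123, 163 and 141, and chr5:125000001-126000000, with 229, 180 and 230 against 153, 172 and 169. In WT-Tag the second and the third were chr5:125000001-126000000 and chr10:79000001-80000000, the latter with 228, 174 and 233 peaks in K27M-Tag against 153, 166 and 165. The ratios of means in these 4 bins, 1.02 to 1.496, were below the 1.76 of all autosomal peaks.

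Peaks were accordingly spread over more of the genome in K27M-Tag. The fullest 10% of bins, ranked within each list, held 35.6%, 36.2% and 33.7% of K27M-Tag peaks and 46.0%, 42.8% and 41.4% of WT-Tag peaks, means of 35.2% ± 1.295 and 43.4% ± 2.38 (SD, n = 3). The ranges did not overlap (two-sided exact permutation p = 0.1), and with 32466 peaks per list the difference was -7.63 percentage points, compared with -8.24. In the H3K4me3 lists of the same cultures the fullest 10% of bins held 30.1%, 29.8% and 29.8% in K27M-Tag against 32.4%, 31.1% and 31.6% in WT-Tag, a difference of -1.80 points (exact permutation p = 0.1). FLAG exceeded H3K4me3 in this measure by 5.26 points ± 1.28 in K27M-Tag against 11.7 ± 1.92 in WT-Tag (SD, n = 3). The difference between genotypes was therefore 6.44 points larger for FLAG than for H3K4me3 (exact permutation p = 0.1, without overlap).

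To relate the gain to promoters without using FLAG values, the 2330 bins were ranked by their mean number of H3K4me3 peaks over the 6 H3K4me3 lists and divided into 4 groups of equal size. These lists come from the same cultures, so the ranking uses no FLAG values but is not independent of the cells. Nor is it independent of FLAG density, as the WT-Tag mean rose from 1.33 FLAG peaks per bin in the poorest group to 47.9 in the richest. In the H3K4me3-poorest group, with at most 4.5 H3K4me3 peaks per bin, the K27M-Tag lists had 4.00, 2.69 and 5.02 FLAG peaks per bin and the WT-Tag lists 0.777, 1.63 and 1.60, a ratio of 2.93. In the richest group, with at least 20.2 H3K4me3 peaks per bin, they had 78.6, 58.4 and 85.5 against 38.8, 53.2 and 51.8, a ratio of 1.55. The ratios in the second and the third group were 2.32 and 2.07. From poor to rich bins the ratio fell at each step, while the difference in peaks per bin grew from 2.57 to 26.2.

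Expressed as one number per list, the log2 ratio of FLAG peaks in the richest to the poorest group was 4.30, 4.44 and 4.09 in K27M-Tag against 5.64, 5.03 and 5.02 in WT-Tag. The means were 4.28 ± 0.18 and 5.23 ± 0.36 (SD, n = 3), without overlap (two-sided exact permutation p = 0.1). The difference of -0.96 became -0.86 with 32466 peaks per list. The richest group held 58.6% ± 1.38 of K27M-Tag peaks and 66.9% ± 2.38 of WT-Tag peaks (SD, n = 3), and the poorest 3.04% ± 0.301 and 1.81% ± 0.359. Measured in covered bases the pattern was alike, with 61.2% against 69.1% in the richest group and 2.58% against 1.53% in the poorest. A raised local background occurred at 8.38% of K27M-Tag and 18.2% of WT-Tag peaks in the richest group and at 3.74% and 9.64% in the poorest. Without such peaks the difference in the log2 ratio was -0.88. Leaving them out cannot bring back peaks that a raised background kept from being called, and the part of local background was not tested.

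**Figure D3:**
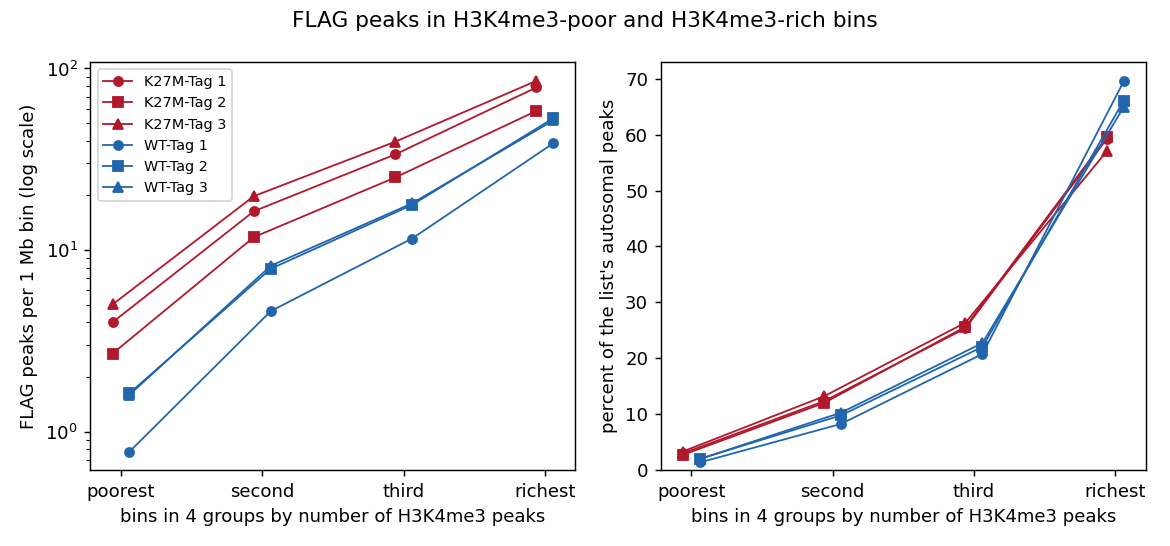
FLAG peaks per 1 Mb bin (left, log scale) and percent of a list's autosomal peaks (right) in 4 groups of bins from H3K4me3-poorest to H3K4me3-richest, 1 line per list. The lines of the genotypes are farthest apart on the left in the poorest bins (ratio 2.93) and closest in the richest (1.55), where K27M-Tag lists have the smaller share.

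Peaks on H3K4me3 and peaks off it were counted apart within these groups. FLAG peaks that overlapped an H3K4me3 peak of their culture by at least 1 bp were 4.73 times as many in K27M-Tag in the poorest group, then 4.17, 3.74 and 3.01 times. FLAG peaks off H3K4me3 were 2.57, 1.91, 1.68 and 1.21 times as many. The ranges were apart in all these groups except for peaks off H3K4me3 in the richest bins, where K27M-Tag had 47.2 ± 9.51 per bin and WT-Tag 39.0 ± 6.78 (SD, n = 3) and the lists overlapped. Both kinds of peak therefore had a smaller ratio in each richer group. K27M-Tag peaks were wider, with a median of 366 bp against 267 bp in the poorest group. H3K4me3 peaks were 1.10 to 1.199 times as dense in K27M-Tag on each chromosome. Both make an overlap more likely in K27M-Tag and were not adjusted for, so the 2 kinds of peak are not compared with each other.

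In the full lists neighbouring peaks lay closer together in K27M-Tag. The median gap from the end of a peak to the start of the next was 2114, 3453.5 and 1926 bp in K27M-Tag and 5906, 4529 and 5082.5 bp in WT-Tag. The means were 2498 ± 833 and 5173 ± 693 bp (SD, n = 3), without overlap (exact permutation p = 0.1). Gaps under 200 bp made up 16.4%, 14.8% and 17.2% of all gaps in K27M-Tag against 12.02%, 12.2% and 12.3% in WT-Tag, and gaps over 500 kb 0.829%, 1.26% and 0.718% against 2.80%, 1.78% and 1.80%. Gaps of 500 bp to 5 kb were about as frequent in both, at 27.1% ± 1.05 and 26.1% ± 1.41 (SD, n = 3). The longest gap was 7.65 to 7.88 Mb in the 6 lists. The direction turned at equal list length: with the 32466 top-scoring peaks of each list the median gap was 10767, 10012 and 11990 bp in K27M-Tag and 5906, 7857 and 8479 bp in WT-Tag, longer by 3509 bp in K27M-Tag and again without overlap. The cut to equal length leaves WT-Tag replicate 1 whole and takes most from the K27M-Tag lists. The ranges overlapped with peaks joined across gaps of 1000 bp (exact permutation p = 0.3) and with the highest-scoring 50% (exact permutation p = 0.2). With that 50% of each list the mean was still shorter in K27M-Tag, at 9455 against 13585 bp.

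**Figure D4:**
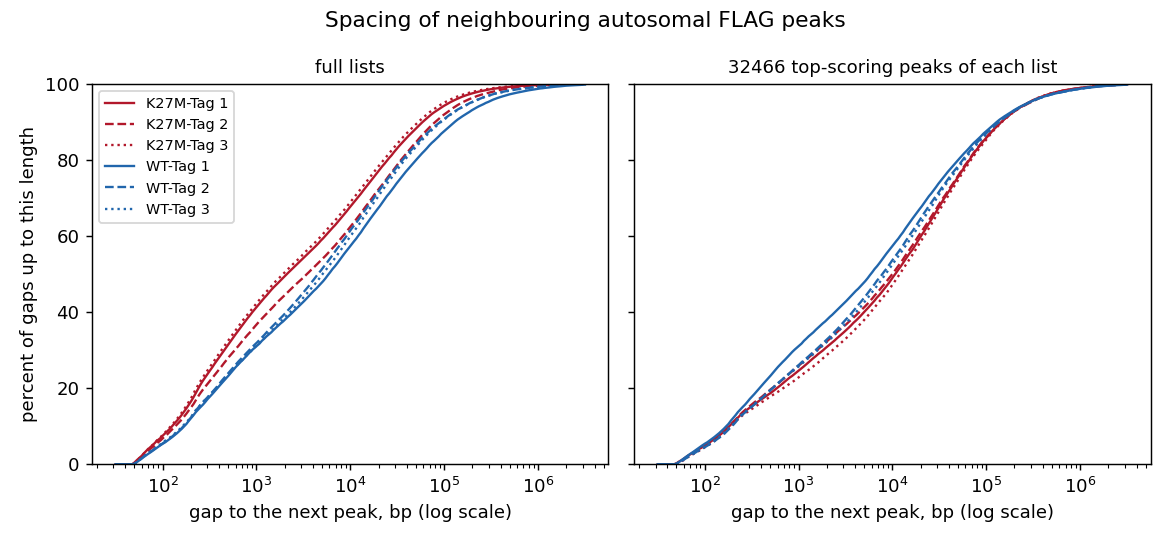
Cumulative percent of gaps between neighbouring FLAG peaks up to a given length in bp (log scale), for the full lists (left) and for the 32466 top-scoring peaks of each list (right), 1 line per list. K27M-Tag curves lie above WT-Tag curves on the left over most lengths and below them in the middle of the range on the right.

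Clusters behaved likewise. A cluster was taken as at least 3 peaks, each within 5 kb of the next. Clusters held 61.4%, 54.5% and 63.2% of K27M-Tag peaks and 47.0%, 51.3% and 49.6% of WT-Tag peaks, means of 59.7% ± 4.55 and 49.3% ± 2.16 (SD, n = 3; exact permutation p = 0.1, no overlap). Peaks with no neighbour within 5 kb made up 20.1%, 24.6% and 18.96% against 32.1%, 28.9% and 30.4%. There were 8950, 6354 and 10361 clusters in K27M-Tag against 3140, 4641 and 4570 in WT-Tag, with a median of 4 peaks in every list. A cluster was thus no larger in K27M-Tag, but clusters were more numerous. At equal list size the direction turned, to 35.9% ± 2.33 of peaks in clusters against 43.1% ± 3.48 (SD, n = 3). With peaks joined across gaps of 1000 bp the difference was 2.13 points, compared with 10.4, and the ranges overlapped (exact permutation p = 0.4). They also overlapped with the highest-scoring 50% of peaks and with clusters of at least 5 peaks (exact permutation p = 0.2 in both). With that 50% of each list the means were 39.1% in K27M-Tag and 33.0% in WT-Tag. At equal list size the top-scoring K27M-Tag peaks were spaced more widely than the same number of WT-Tag peaks. That cut is stricter for the longer K27M-Tag lists.

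An H3K4me3 peak of the same culture was overlapped by 71.2%, 71.8% and 72.0% of K27M-Tag clusters and by 49.3%, 49.8% and 46.1% of WT-Tag clusters. The same held for peaks of any kind, of which 34.6%, 36.5% and 34.4% overlapped H3K4me3 in K27M-Tag against 19.7%, 18.98% and 17.6% in WT-Tag. The ratio of means was 1.48 for clusters and 1.87 for all peaks, so as a ratio the difference was not larger for clusters. In percentage points it was larger for clusters, at 23.3 against 16.4, so the order depends on the measure. Peaks in K27M-Tag were also wider and its H3K4me3 peaks denser, and neither was adjusted for. The largest cluster of K27M-Tag replicate 3 was 150 peaks on chr10:84216080-84378656, in the bin with the largest gain. The same stretch held 133, 119 and 150 peaks in K27M-Tag against 109, 70 and 47 in WT-Tag, and the largest clusters of K27M-Tag replicates 1 and 2 and of WT-Tag replicate 1, of 133, 73 and 87 peaks, lay within it. Few of these peaks were on H3K4me3, 13 of the 150 in K27M-Tag replicate 3 and 2 of the 87 in WT-Tag replicate 1. WT-Tag replicate 2 had its largest cluster, 66 peaks, on chr9:72508862-72601228, with 55, 32 and 49 peaks for K27M-Tag in the same stretch and 53, 66 and 71 for WT-Tag. That of WT-Tag replicate 3, 63 peaks on chr1:40014587-40090917, held 58, 34 and 53 against 47, 63 and 63, and is in a bin named above for its lower share. In both places the K27M-Tag and WT-Tag ranges overlapped.

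Width also separated the genotypes. Peaks of at least 1 kb made up 12.8%, 11.7% and 13.03% of K27M-Tag lists and 2.09%, 4.55% and 4.25% of WT-Tag lists, means of 12.5% ± 0.726 and 3.63% ± 1.34 (SD, n = 3; exact permutation p = 0.1, no overlap). With 32466 top-scoring peaks per list these means were 27.5% ± 6.56 and 4.86% ± 2.41. That cut leaves WT-Tag replicate 1 whole and takes most from the K27M-Tag lists, so it is stricter for K27M-Tag. With the highest-scoring 50% of each list the means were 24.4% ± 1.48 and 7.03% ± 2.61. Peaks under 300 bp made up 33.4%, 32.7% and 35.1% in K27M-Tag against 59.5%, 47.4% and 48.9% in WT-Tag. Their number differed little, at 25801, 18655 and 30666 against 19310, 22224 and 22684, and the ranges overlapped. The ratio of numbers was 1.17 under 300 bp, 1.77 from 300 to under 500 bp, 2.68 from 500 to under 1000 bp, 5.27 from 1000 to under 2000 bp and 11.2 at 2000 bp and more. In that widest class there were 1931, 1066 and 2191 peaks in K27M-Tag against 40, 252 and 170 in WT-Tag. The ratio between genotypes thus grew with each wider class. The shortest width of a list, also its most common one, was 211, 215 and 200 bp in K27M-Tag and 176, 197 and 193 bp in WT-Tag, and its part in the narrowest class was not tested.

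**Figure D5:**
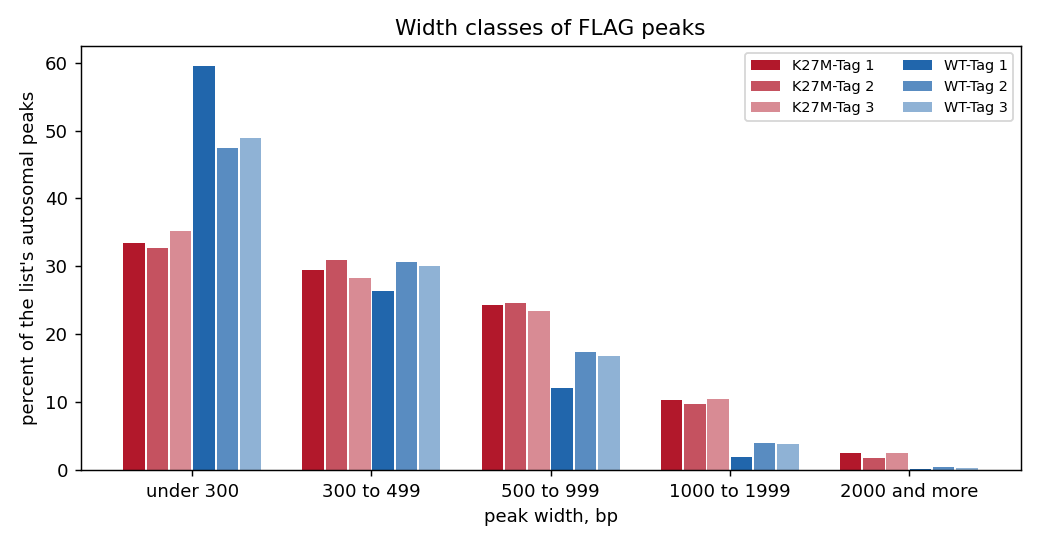
Percent of a list's autosomal FLAG peaks in 5 classes of width, 1 bar per list, K27M-Tag in red and WT-Tag in blue. WT-Tag bars are higher under 300 bp (47.4% to 59.5% against 32.7% to 35.1%), and K27M-Tag bars are higher in the 3 classes from 500 bp.

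Wide peaks overlapped H3K4me3 more often than narrow ones. Of peaks of at least 1 kb, 60.9%, 60.6% and 62.9% overlapped H3K4me3 in K27M-Tag against 41.9%, 43.3% and 37.4% in WT-Tag. Of peaks under 300 bp the means were 23.7% ± 1.73 and 14.4% ± 1.35 (SD, n = 3). Wider intervals overlap others more readily, and this was not adjusted for. Peaks of at least 1 kb held 36.3%, 32.8% and 37.1% of the covered bases in K27M-Tag against 8.26%, 16.1% and 15.0% in WT-Tag. They were more frequent inside clusters than among lone peaks in both genotypes, at 14.1% ± 0.691 against 9.50% ± 0.437 in K27M-Tag and 5.03% ± 1.59 against 1.91% ± 0.888 in WT-Tag (SD, n = 3). Wide peaks were also more frequent in richer bins. From the H3K4me3-poorest to the richest group, 7.14%, 9.54%, 11.5% and 13.9% of K27M-Tag peaks reached 1 kb, and 0.971%, 2.16%, 2.68% and 4.23% of WT-Tag peaks. In each of the 4 groups the K27M-Tag lists lay above the WT-Tag lists without overlap.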

How the data were processed

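The authors deposited 1 narrowPeak list per FLAG or H3K4me3 sample on mm9, with a score, a fold ratio over local background, −log10 p and −log10 q. The submitters' processing notes name BWA 0.7.17-r1188, MACS2 2.2.7.1 and bedtools 2.29.2; the control and the threshold are not given in the sources used here. The lowest −log10 q of a list was 2.00 to 2.05. The 2 composite inputs, 1 per genotype, were not analysed here; were they the controls, all 3 lists of a genotype would have the same one. Pileup and background of each peak were recovered from the deposited fold and −log10 p (relative error up to 0.0001, 100% matched).

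Chromosome spans ran from the first to the last peak of the 12 lists. Bins were tested with limma 3.58.1 (R 4.3.3, trend) and Benjamini-Hochberg adjustment, at a threshold of 0.05, and whole lists by two-sided exact permutation. Alternatives were equal list size, the highest-scoring 50%, joined peaks, peaks off H3K4me3, other bins, limits and filters, covered bases, each library left out and the replicate block; leaving out peaks on a raised local background was added after seeing the data. On simulated bins, 79 of 100 raised 2-fold, 51 of 100 lowered to 0.5-fold and 3 of 1503 unchanged ones were called. These bins were drawn independently of each other and fitted by share only. Bins of a real list can deviate together, so these counts do not give the error rate of these data. The fit as counted was not simulated. Named bins were the 10 largest gains without overlap, up to 10 per direction by share, up to 5 falls and the 3 fullest per genotype. The comparison, bins and rules were chosen with earlier results of these data known.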

Additional observations from a re-analysis of the deposited data

Results flagged for a closer look

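Outside the autosomes, peaks of tagged histone also appeared on chromosome X, which none of the comparisons used. The K27M-Tag lists held 643, 402 and 811 FLAG peaks there and the WT-Tag lists 124, 223 and 105, means of 619 and 151, so all 3 K27M-Tag lists lay above the WT-Tag lists, which are the control group here. WT-Tag replicate 3, with 105 peaks, came from the culture labelled male, and the other 5 from cultures labelled female. No test was made of chromosome X.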

How the results depend on the processing

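Peak lists end at a limit, so numbers, gaps and widths move with the length of a list, and depth is known only as recovered background coverage. The 1167 bins called as counted became 504 at equal list size, 466 with peaks off H3K4me3, 775 in bins of 2 Mb and 1872 in bins of 500 kb (with 1422, 1539, 1048 and 3112 bins tested in place of 1703). Leaving out 1 library gave 622 to 1366, lowest without K27M-Tag replicate 1, the next being 654 without K27M-Tag replicate 3. The 691 bins called by share became 1039 in bins of 500 kb, and 385 to 729 with 1 library left out, lowest without K27M-Tag replicate 3, the next being 453 without K27M-Tag replicate 1. Of the 691, 574 could be tested at equal list size and 425 were called in the same direction, as were 489 without raised local background and 464 off H3K4me3; none was called in the other direction in these settings. The 13 called chromosomes were 10 to 16 with 1 library left out. Reversed were the median gap (3509 bp) and the share in clusters (-7.15 points) at equal list size, the share change of chr6 from 91000001 (-0.13) and chr4 from 97000001 (-0.11) with peaks joined, and chr10 from 80000001 as counted at equal list size (-0.33). The cause was not tested. The other 71 of 73 values at list level kept their direction, but the ranges of the genotypes then overlapped for the median gap with peaks joined (-1991 bp) and with the highest-scoring 50% (-4130 bp), and for the share in clusters with peaks joined (2.13 points), with the highest-scoring 50% (6.01) and with clusters of 5 or more (7.45). Peaks per Mb at equal list size has no value, since it is fixed by construction.

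The labels give an experiment number of 1, 2 or 3 that is shared between the genotypes, without saying what it marks. Same-numbered lists did not clearly deviate together (r = 0.03, -0.03 and 0.14, compared with -0.14 to 0.10 for other pairs). So few values cannot exclude something shared by number. The fit without pairing is the main one, and the replicate block is an alternative. With the replicate block, 959 bins as counted, 734 by share and 14 chromosomes were called; 683 of the 691 bins were among the 734.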

Other observations

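The first and the last 5 Mb of the autosomes were compared with their whole length. In the first 5 Mb, next to the centromere in mouse, K27M-Tag lists had 25.6 ± 5.41 FLAG peaks per Mb and WT-Tag lists 15.8 ± 3.10 (SD, n = 3), a ratio of 1.62. In the last 5 Mb they had 41.4 ± 7.90 and 25.1 ± 4.00, a ratio of 1.65, compared with 1.76 over the whole autosomes. Both ends were thus close to the rest in ratio, and the far end was denser in both genotypes. On unplaced contigs the FLAG lists were alike in number, with 198, 126 and 216 peaks in K27M-Tag against 173, 190 and 180 in WT-Tag.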
